A study of Mus musculus with 6 samples.

Results

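The Ada-two-A-containing complex (ATAC) is a histone acetyltransferase complex, and its transcripts were measured through 10 genes that encode its subunits, Yeats2, Zzz3, Kat2a, Kat2b, Kat14, Tada2a, Tada3, Dr1, Mbip and Wdr5. The genes were taken by name, whatever their values, from the 55401 genes of the count files, after the Ensembl mouse identifiers were matched to symbols. All 10 were found, and all 10 passed the filter on low counts, which 18539 genes passed. ATAC, the complex, is not to be confused with ATA, aurintricarboxylic acid, the compound tested in these cells.

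ATAC is built around an acetyltransferase module that adds acetyl groups to histone tails and so marks chromatin for transcription. KAT2A (also called GCN5) or its paralog KAT2B (PCAF) is the catalytic subunit of that module and works there with the adaptors TADA2A and TADA3. The same catalytic subunits, with TADA2B in place of TADA2A, also form part of SAGA, a separate coactivator complex. KAT14 is an acetyltransferase found in ATAC, and YEATS2, ZZZ3, DR1, MBIP and WDR5 are further subunits, as readers of histone tails, histone-fold proteins and scaffolds. ATAC is known as a cofactor of TAZ-CAMTA1 (TC), the fusion protein of epithelioid hemangioendothelioma, which binds DNA through TEAD transcription factors.

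RNA-Seq was performed on poly(A) RNA of NIH3T3 cells, an immortalized line of mouse embryonic fibroblasts, in 6 libraries. There were 2 libraries of empty vector cells with DMSO vehicle (EV), 1 library of TC-expressing cells with DMSO (TC) and 3 libraries of TC-expressing cells with 10 μM ATA (TC + ATA), all after 48 h. The TC-expressing cells are described as stably expressing TC, and no source used here says whether the TC-expressing cells came from 1 or several clones, or whether the libraries of a group came from separate cultures. The p-values therefore measure only the spread between these libraries, which may be technical.

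Library totals ran from 58471484 to 74413193 counts, and each of the 10 genes had between 699 and 9967 counts in a library, so counting error was at most 3.78% of a value. The EV libraries differed from each other far more than the TC + ATA libraries did, with a chi-square statistic of the counts per degree of freedom of 61.3 against 5.86 to 6.61. The difference between the EV libraries went with gene length, since the median log2 difference of EV replicate 2 from EV replicate 1 was −0.14 in the 4631 genes of up to 1760 exonic bases and 0.06 in the 4628 genes of 5897 or more. Of the fibroblast markers, Col1a1, Col1a2, Vim and Fn1 were at 1516 CPM or more in every library, and Thy1 lay between 183 and 204 CPM in EV and between 69.6 and 86.0 CPM in the other libraries. CPM is the count of a gene scaled to the size of its library after TMM normalization. The markers of epithelium (5 genes, at most 0.288 CPM), endothelium (5 genes, at most 1.43 CPM) and leukocytes (4 genes, at most 5.33 CPM) were low, and of the defining genes Epcam had no counts in 4 libraries while Ptprc ran from 0.282 to 5.33 CPM, with both ends of that range in TC + ATA. Desmin (Des), on the muscle list, was at 26.2 to 42.4 CPM, with Myod1 and Myog at 1.18 CPM or less. In bulk RNA, fewer cells with a transcript and less of it per cell cannot be told apart.

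The subunits were first set side by side per length, in TPM (counts divided by the exonic length of the gene and scaled to the same total in each library). Kat2a was the most abundant of the 10 in every library, with 90.2 and 100.1 TPM in EV, 98.9 in TC and 87.1, 82.9 and 86.5 in TC + ATA. Wdr5 came next and Dr1 after it in all 3 groups, and none of these neighbours overlapped within a group. Dr1 had 56.7 and 61.4 TPM in EV, 59.4 in TC and 57.2 to 61.2 in TC + ATA. The remaining genes lay close together. In EV, the range of each of Tada2a, Mbip, Zzz3 and Tada3 overlapped that of the next gene in the order, down to Kat14 with 27.9 TPM. These overlaps were between different libraries, and the order of these genes was the same within each EV library. Kat2b was the lowest in EV and TC, with 16.4 ± 2.88 TPM (SD, n = 2) and 15.3 TPM. Its range overlapped that of Yeats2 in EV and in TC + ATA, where Yeats2 had 14.8 ± 0.221 TPM (SD, n = 3). Within each EV library, however, Yeats2 was above Kat2b, with 18.3 against 14.4 TPM and 25.7 against 18.4 TPM. In TC + ATA, Kat2b was above Yeats2 in replicates 1 and 2 and below it in replicate 3. The mean levels of the 10 genes over all libraries ran from above 61.1% to above 89.9% of the genes tested. By their mean TPM, Kat14 ranked 8 in EV and 4 in TC + ATA, whereas Tada2a and Mbip ranked 4 and 5 in EV and 6 and 7 in TC + ATA. The rank of Kat14 in TC + ATA was not the same in each library, since its mean of 32.5 TPM was close to that of Zzz3 (32.4). Zzz3 was above Kat14 in replicates 1 and 3, and Tada2a was above it in replicate 3.

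**Figure D1:**
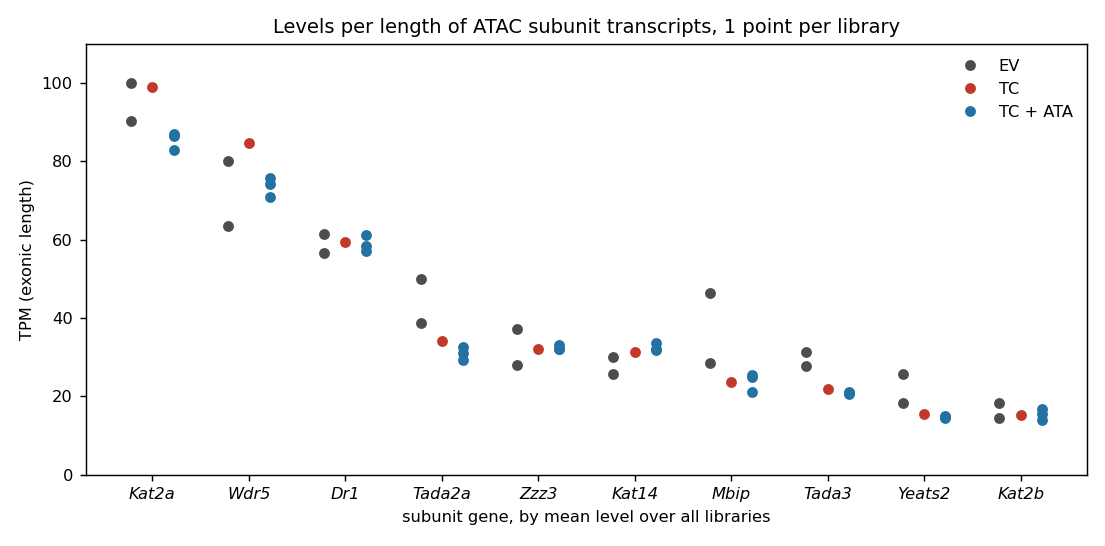
Level per length in TPM (linear axis) of the 10 ATAC subunit genes, ordered by their mean over all 6 libraries, with 1 point per library for EV (2), TC (1) and TC + ATA (3). Kat2a, Wdr5 and Dr1 lie above the other genes in every library, and the EV points of Mbip and Wdr5 are far apart.

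The transcripts of Yeats2, Tada2a, Tada3 and Mbip were lower in TC + ATA than in EV, and that of Kat14 was higher, while Zzz3, Kat2b and Dr1 stayed within 0.07 of 0 on the log2 scale. These changes were small, between 1.22-fold and a level of 0.674 of that in EV. Because TC + ATA differs from EV in both the fusion gene and the compound, the parts of these cannot be told apart there. Between TC + ATA and TC, no subunit was called. The plot of CPM by library shows each value.

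**Figure D2:**
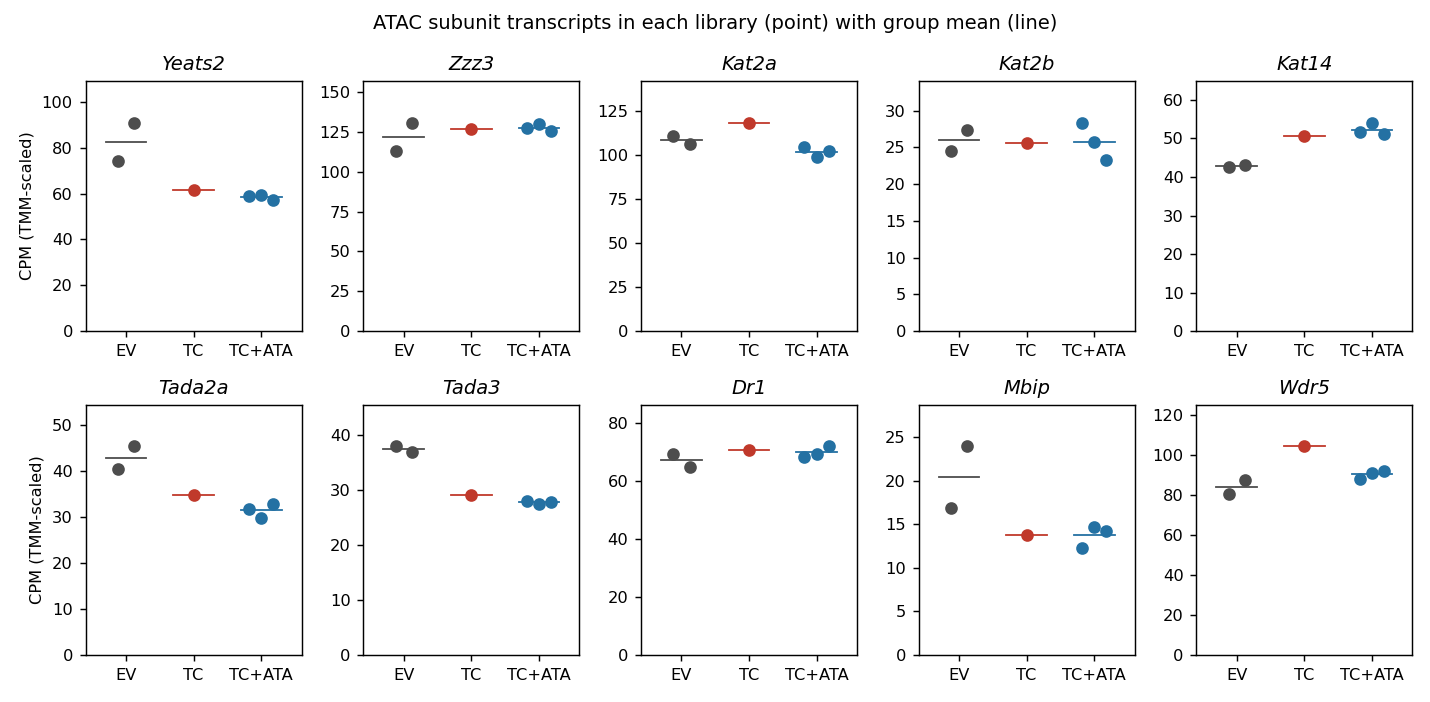
CPM after TMM normalization (linear axes from 0, a scale of its own for each gene) of the 10 ATAC subunit genes in EV (2 libraries), TC (1) and TC + ATA (3), with 1 point per library and a line at the group mean. For Yeats2, Tada2a, Tada3 and Mbip both EV points lie above all TC and TC + ATA points, and for Kat14 below them.

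TADA3 and TADA2A are the adaptors that hold the acetyltransferase in the complex. Tada3 (chromosome 6, 113366025 to 113377883, GRCm38) had 38.0 and 37.0 CPM in the EV libraries, 29.1 CPM in TC and 28.1, 27.5 and 27.9 CPM in TC + ATA. The EV libraries were the high ones, and the 3 TC + ATA libraries lay within 1 CPM of each other. The log2 fold change of Tada3 was −0.43 in TC + ATA versus EV (standard error 0.06, edgeR, adjusted p = 0.000733) and −0.37 in TC versus EV (standard error 0.09, edgeR, adjusted p = 0.0129). With the TC + ATA libraries left out of the fit the second was no longer called (edgeR, adjusted p = 0.141), whereas the first was called in all 12 alternative fits.

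Tada2a (chromosome 11, 84078920 to 84129600), the adaptor that distinguishes ATAC from SAGA, had 40.4 and 45.3 CPM in EV, 34.8 CPM in TC and 31.8, 29.8 and 32.8 CPM in TC + ATA. The TC library lay between the other groups, which did not overlap. Its log2 fold change was −0.45 in TC + ATA versus EV (standard error 0.08, edgeR, adjusted p = 0.00174), called in all 12 alternative fits. It was −0.30 in TC versus EV (standard error 0.10, edgeR, adjusted p = 0.0609). Without EV replicate 1, the difference between TC and EV was −0.39. Its counterpart in SAGA, Tada2b, had 31.2 and 32.5 CPM in EV, 34.5 CPM in TC and 32.5 to 34.5 CPM in TC + ATA, with a log2 fold change of 0.08 in TC + ATA versus EV (edgeR, adjusted p = 0.396).

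YEATS2 carries a YEATS domain, which binds acylated lysines of histone H3. Yeats2 (chromosome 16, 20141063 to 20232573) had 74.4 and 90.9 CPM in EV, 61.4 CPM in TC and 59.1, 59.3 and 57.0 CPM in TC + ATA. Both EV libraries lay above the others, although they were 1.22-fold apart. The difference on the log2 scale (log2 fold change) was −0.50 in TC + ATA versus EV (standard error 0.08, edgeR, adjusted p = 0.00169), called in all 12 alternative fits, and −0.43 in TC versus EV (standard error 0.12, edgeR, adjusted p = 0.0242). The call for TC was lost when TC + ATA was left out of the fit (edgeR, adjusted p = 0.0757) and without any 1 of the TC + ATA replicates (edgeR, adjusted p between 0.0524 and 0.0615). Without EV replicate 2 this log2 fold change was −0.28. Yeats2 has 11585 exonic bases, and among the 1350 genes tested with at least 10000 the median difference between TC + ATA and EV was 0.01 on the log2 scale.

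MBIP was first described as an inhibitor of a kinase of the JNK pathway and is a subunit found in ATAC. Mbip (chromosome 12, 56328303 to 56345894) had 16.9 and 23.9 CPM in EV, 13.7 CPM in TC and 12.3, 14.7 and 14.2 CPM in TC + ATA. Its EV libraries were 1.41-fold apart, the widest gap of the 10 genes, and EV replicate 2 was the high one. The log2 fold change came to −0.57 in TC + ATA versus EV (standard error 0.14, edgeR, adjusted p = 0.0133). It was −0.29 without EV replicate 2 and −0.81 without EV replicate 1, and the call was lost without EV replicate 2 (edgeR, adjusted p = 0.0542) or TC + ATA replicate 1 (edgeR, adjusted p = 0.0530). In TC versus EV it was −0.57 (standard error 0.20, edgeR, adjusted p = 0.0614). There it was −0.81 without EV replicate 1, and it was called in the fit of EV and TC alone (edgeR, adjusted p = 0.0280).

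The promoters of these 4 lower genes are shown to see whether they resembled each other. They are the bases just upstream of the annotated gene, from RefSeq promoter windows of GRCm38.p6 that start 250 bases before the transcription start, on the strand of the gene, with CpG dinucleotides in capitals.
Yeats2, chr16:20140813-20141062, plus strand: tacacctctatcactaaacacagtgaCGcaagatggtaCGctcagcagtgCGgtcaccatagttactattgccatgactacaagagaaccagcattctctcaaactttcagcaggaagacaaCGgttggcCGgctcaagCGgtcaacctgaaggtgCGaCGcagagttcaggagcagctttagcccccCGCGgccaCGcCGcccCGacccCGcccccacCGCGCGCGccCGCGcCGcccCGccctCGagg
Tada2a, chr11:84129601-84129818, minus strand: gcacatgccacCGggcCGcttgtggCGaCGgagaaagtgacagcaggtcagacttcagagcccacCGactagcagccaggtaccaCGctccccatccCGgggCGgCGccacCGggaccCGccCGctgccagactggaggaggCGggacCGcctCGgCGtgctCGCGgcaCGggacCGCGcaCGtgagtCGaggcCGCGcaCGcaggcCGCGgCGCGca
Tada3, chr6:113377884-113378088, minus strand: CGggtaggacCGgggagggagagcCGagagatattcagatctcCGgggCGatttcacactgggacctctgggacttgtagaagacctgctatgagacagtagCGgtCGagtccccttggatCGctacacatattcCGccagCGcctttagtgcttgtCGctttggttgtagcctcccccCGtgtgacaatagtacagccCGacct
Mbip, chr12:56345895-56346144, minus strand: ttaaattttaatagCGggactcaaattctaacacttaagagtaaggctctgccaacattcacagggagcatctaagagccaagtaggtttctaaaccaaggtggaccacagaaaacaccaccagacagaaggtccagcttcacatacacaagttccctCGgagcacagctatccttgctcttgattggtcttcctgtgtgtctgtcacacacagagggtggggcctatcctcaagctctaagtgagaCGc
They did not share a base composition. The full windows of 300 bases, which reach 50 bases past the start, held 45 CpG dinucleotides in Tada2a, 30 in Yeats2, 19 in Tada3 and 8 in Mbip, against a median of 7 over all 32851 windows. The GC content ran from 49.0% in Mbip to 75.0% in Tada2a, against a median of 52.7%.

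The core of the TEAD element, through which TC reaches DNA, was searched as GGAATG on both strands in the 13 windows of the 10 genes. It occurred in 14.7% of all 32851 windows and in 2 of the 13, namely in 1 of the 2 windows of Kat2b, with 3 matches, and in that of Kat14. None of the 4 windows above held these letters. The matches are shown in capitals in 30 bases of context, with positions counted from the start, except for a match of Kat2b at −84 that overlaps the one at −89.
Kat2b, −89, chr17:53584025-53584054, plus strand: acaatgtgggcaGGAATGgaatgctgggag
Kat2b, −26, chr17:53584088-53584117, plus strand: gtcacagctggtGGAATGccagctgtagac
Kat14, 27, chr2:144369047-144369076, plus strand: cggccgggagcgGGAATGtcgaggagttcg
The letters CCGGAAG, the core of ETS factor sites, were in 3 of the 13 windows, in Zzz3, Tada3 and Dr1, and in 8.86% of all windows. The core of the NRF1 element was in 1, that of Wdr5, and in 4.60% of all windows. These matches overlapped none of the TEAD core matches. They describe letters in the sequence, and no binding was measured here.

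KAT2A, KAT2B and KAT14 are the acetyltransferases of the complex. Kat14 (chromosome 2, 144368983 to 144407676) was the one subunit with a higher level in TC + ATA that passed the test against EV. It had 42.6 and 43.2 CPM in EV, 50.7 CPM in TC and 51.7, 54.1 and 51.0 CPM in TC + ATA, so that the 2 EV libraries, which were within 1 CPM of each other, lay below the other 4. Its log2 fold change was 0.29 in TC + ATA versus EV (standard error 0.06, edgeR, adjusted p = 0.00586) and 0.24 in TC versus EV (standard error 0.08, edgeR, adjusted p = 0.0533). The call in TC + ATA versus EV was lost with scaling by library size only (log2 fold change 0.20, edgeR, adjusted p = 0.0535). That scaling put the median of all genes there at −0.10, instead of −0.01. In TC versus EV, Kat14 was called in 4 of 12 alternative fits, among them DESeq2 (adjusted p = 0.0482). Of these 4 fits, 2 left EV with 1 library, whose spread was then taken from the other groups. Kat14 shares 693 of its 4699 exonic bases with Pet117 on the same strand, and Pet117 had 0 counts in every library. Reads in shared bases may be missing from both genes, so the 0 counts do not show that Pet117 was silent.

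Kat2a (chromosome 11, 100704746 to 100712465) had 110.4 and 106.2 CPM in EV, 118.2 CPM in TC and 104.5, 98.7 and 102.0 CPM in TC + ATA. The TC library was the highest and the TC + ATA libraries the lowest, below both EV libraries. In log2 terms the change was 0.13 in TC versus EV (95% interval −0.05 to 0.31, edgeR, adjusted p = 0.285) and −0.09 in TC + ATA versus EV (95% interval −0.22 to 0.04, edgeR, adjusted p = 0.272). With scaling by library size only, the latter was −0.18 and was called (edgeR, adjusted p = 0.0383), where the median of all genes was −0.10 instead of −0.01. Kat2b (chromosome 17, 53566861 to 53672720) had 24.6 and 27.4 CPM in EV, 25.6 CPM in TC and 28.4, 25.8 and 23.2 CPM in TC + ATA, a range that held all the other libraries. Its log2 fold changes were −0.02 in TC versus EV (95% interval −0.32 to 0.27) and −0.01 in TC + ATA versus EV (95% interval −0.23 to 0.21). A pseudogene, Kat2b-ps, matches Kat2b over 2479 bases with 95.1% identity and had at most 4 counts in a library.

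Because KAT2A and KAT2B take the same place in the complex, and TADA2A and TADA2B the corresponding places in ATAC and SAGA, their shares of the summed TPM were compared. Kat2a made up 86.3% and 84.4% of Kat2a plus Kat2b in EV, 86.6% in TC and 83.7%, 84.2% and 86.0% in TC + ATA. The groups overlapped, and the difference between TC + ATA and EV was −0.685 percentage points (exact permutation test, two-sided p = 0.5, 10 regroupings). Tada2a made up 62.3% and 64.0% of Tada2a plus Tada2b in EV, 56.3% in TC and 54.4%, 53.9% and 54.8% in TC + ATA. Here the groups did not overlap, and the mean was 63.1% ± 1.23 (SD, n = 2) in EV and 54.4% ± 0.455 (SD, n = 3) in TC + ATA. The exact permutation test gave a two-sided p of 0.1, the smallest that 3 libraries against 2 allow. The share uses 1 exonic length per gene for all its transcripts, and without length scaling the difference was −9.01 percentage points instead of −8.75.

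**Figure D3:**
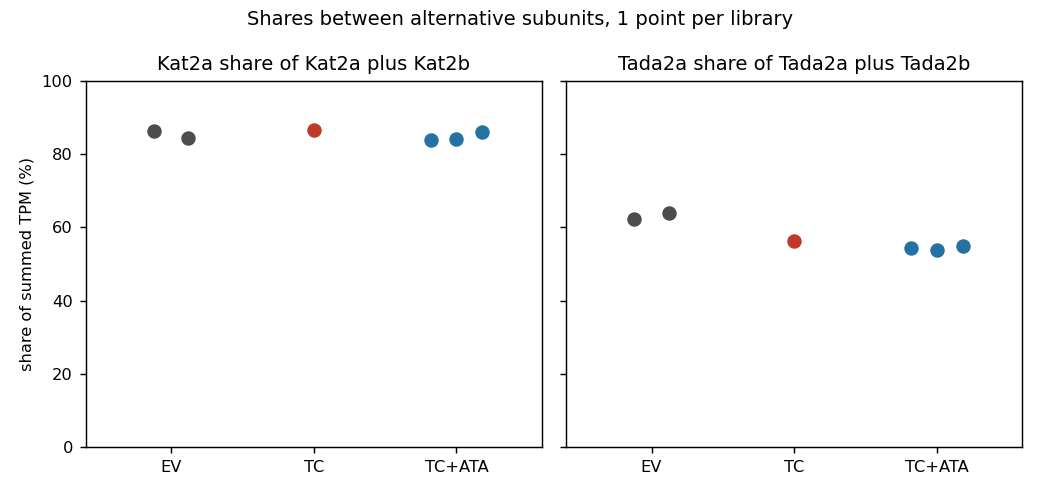
Share (percent of summed TPM, linear axis from 0 to 100) of Kat2a in Kat2a plus Kat2b (left) and of Tada2a in Tada2a plus Tada2b (right), with 1 point per library for EV (2), TC (1) and TC + ATA (3). The Kat2a share overlaps between the groups, and the Tada2a share is 62.3% and 64.0% in EV and at most 56.3% in the other libraries.

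WDR5, a scaffold of WD repeats that ATAC shares with the COMPASS histone methyltransferases, was higher in TC than in EV. Wdr5 (chromosome 2, 27515157 to 27536535) had 80.4 and 87.9 CPM in EV, 104.5 CPM in TC and 88.1, 91.2 and 92.2 CPM in TC + ATA. The TC library stood above all the others, and the lowest TC + ATA library was only just above the higher EV library. The log2 fold change came to 0.31 in TC versus EV (standard error 0.08, edgeR, adjusted p = 0.0235) and 0.11 in TC + ATA versus EV (95% interval −0.04 to 0.25, edgeR, adjusted p = 0.238). The latter ranged from 0.03 to 0.18 over the fits without 1 replicate, and was 0.18 without EV replicate 2. In TC versus EV the call rested on a single TC library. It was lost with scaling by library size only (edgeR, adjusted p = 0.198), which put the median of all genes at −0.13 instead of −0.03. The call was also lost in the fit of EV and TC alone (edgeR, adjusted p = 0.218) and without any 1 of the TC + ATA replicates (edgeR, adjusted p between 0.0575 and 0.0693).

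ZZZ3 reads histone H3 tails through a ZZ domain, and DR1 is a histone-fold protein that also binds the TATA-binding protein as part of the repressor NC2. Zzz3 (chromosome 3, 152395473 to 152462826) had 113.2 and 130.7 CPM in EV, 127.0 CPM in TC and 127.2, 130.2 and 125.3 CPM in TC + ATA. All 4 libraries with TC lay between the 2 EV libraries. Its log2 fold change was 0.06 in both TC versus EV (95% interval −0.16 to 0.28) and TC + ATA versus EV (95% interval −0.10 to 0.23), and the sign depended on which EV library was used. Without EV replicate 2 it was 0.16 in TC and 0.18 in TC + ATA, and without EV replicate 1 it was −0.05 in both. Dr1 (chromosome 5, 108268897 to 108280526) had 69.3 and 65.1 CPM in EV, 71.0 CPM in TC and 68.6, 69.6 and 72.1 CPM in TC + ATA. Its log2 fold changes were 0.08 (95% interval −0.11 to 0.27) and 0.06 (95% interval −0.08 to 0.20). Zzz3 matches Gm8261, which had at most 14 counts, over 1208 bases with 96.4% identity.

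Over the 10 genes, 3 were called in TC versus EV, 1 higher and 2 lower, against a background of 28% (14.8% higher and 13.2% lower) of the 18539 genes. None of the 10 passed the limit of 2 on the absolute log2 fold change, which 3.64% of all genes did together with the adjusted p. For 8 of the 10, the TC library lay outside the range of the 2 EV libraries, as it did for 78.9% of all genes. It lay above that range for 4 of them and below it for 4, against 38.9% and 40% of all genes. With scaling by library size only, which put the median of all genes at −0.13, 0 were higher and 3 lower (Yeats2, Tada2a and Tada3), and of all genes 2072 were higher and 3159 lower instead of 2735 and 2456. Without EV replicate 1 the count of members was 6, while 3746 of all genes were higher and 3708 lower, and without EV replicate 2 it was 5, with 3728 and 3601 of all genes. In these 2 fits the single EV library was assumed to vary like the other groups. Without any 1 of the TC + ATA replicates the count of members was 1 (Tada3), with 2162 to 2296 of all genes higher and 1912 to 2073 lower. The median log2 fold change of the 10 was 0.02, against −0.03 for all genes, and the median of its size was 0.27 against 0.39.

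In TC + ATA versus EV, the comparison with replicates on both sides, edgeR called 5 of the 10, 1 higher and 4 lower, against 36.6% of all genes (18% higher and 18.6% lower). For 7 of the 10 the libraries of the groups did not overlap, against 58.8% of all genes. For 2 of them TC + ATA lay above EV and for 5 below, against 28.7% and 30.1%. No subunit passed the limit of 2 on the log2 scale, which 3.87% of all genes passed. The share called among the subunits was not far from that among all genes, and the median size of their log2 fold changes was 0.20, against 0.35 for all genes. With scaling by library size only, which put the median of all genes at −0.10 instead of −0.01, 0 were higher and 5 lower, Kat2a in place of Kat14. The counts of all genes in that fit are not given here. DESeq2 called 1 higher and 4 lower. The comparisons of TC and of TC + ATA with EV share both EV libraries, so their values are not independent.

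**Figure D4:**
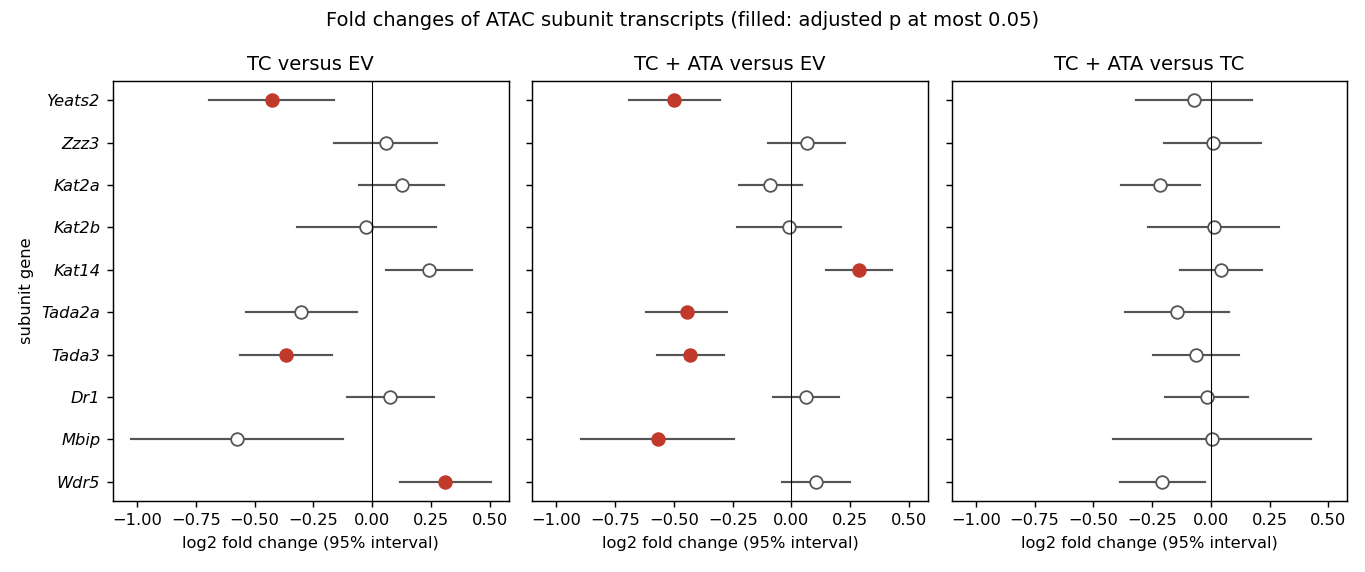
Log2 fold changes (points) with 95% intervals (lines) from edgeR for the 10 ATAC subunit genes in the 3 comparisons, filled where the adjusted p was at most 0.05. In TC + ATA versus EV, Yeats2, Tada2a, Tada3 and Mbip lie between −0.57 and −0.43 and Kat14 at 0.29, and in TC + ATA versus TC no point is filled.

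Whether ATA changed the subunits in TC-expressing cells was asked in TC + ATA versus TC, where 0 of the 10 were called against 0.583% of all genes (0.426% higher and 0.156% lower). At an unadjusted p under 0.05 there were 2, Kat2a and Wdr5, and DESeq2 called 0. Kat2a had a log2 fold change of −0.22 (95% interval −0.38 to −0.05, edgeR, adjusted p = 0.362) and Wdr5 of −0.21 (95% interval −0.39 to −0.03, edgeR, adjusted p = 0.444), both with all 3 TC + ATA libraries below the single TC library. Both were called when the spread came from the TC + ATA libraries alone, as in the fit of TC and TC + ATA alone (edgeR, adjusted p = 0.0179 and 0.0290), without EV replicate 1 (0.0132 and 0.0221) and without EV replicate 2 (0.0188 and 0.0315).
The other 8 genes had log2 fold changes between −0.14 for Tada2a and 0.04 for Kat14. For Yeats2, Tada2a, Tada3 and Kat14 the values were −0.07 (95% interval −0.32 to 0.17), −0.14 (−0.36 to 0.08), −0.06 (−0.25 to 0.12) and 0.04 (−0.13 to 0.22). The interval of Mbip, from −0.42 to 0.43, was the widest. For 6 of the 10, all TC + ATA libraries lay on 1 side of the TC library, 5 below and 1 above, against 63.2% of all genes (32.7% below and 30.5% above). None passed the limit of 2 on the log2 scale, which 0.0539% of all genes passed.

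The remaining ATAC subunits were Sgf29, Chrac1, Pole3 and Map3k7, of which 0 of 4 were called in any of the 3 comparisons. Among all genes, 28% were called between TC and EV and 36.6% between EV and TC + ATA. For TC-expressing cells with and without ATA the share was 0.583%. With only 4 genes listed, a count of 0 says little beside these shares. SGF29 reads methylated histone H3 and had 12.7 and 10.7 CPM in EV, 13.4 CPM in TC and 12.0 to 13.1 CPM in TC + ATA. CHRAC1 and POLE3 form a histone-fold pair. Chrac1 had 37.1 and 29.5 CPM in EV, 26.5 CPM in TC and 27.4 to 31.1 CPM in TC + ATA, with a log2 fold change of −0.33 in TC versus EV (95% interval −0.65 to 0.00, edgeR, adjusted p = 0.131). Pole3 had 109.2 to 115.7 CPM in EV, 118.5 CPM in TC and 120.2 to 122.3 CPM in TC + ATA, and Map3k7, which encodes the kinase TAK1, had 86.6 to 101.0 CPM in EV and 88.6 to 95.3 CPM in the other libraries. Of the 2353 exonic bases of Chrac1, 219 overlap Ago2, which lies on the other strand, and Sgf29 overlaps opposite-strand genes over up to 169 of its 1802. The library kit does not mark strand, so reads there cannot be assigned to 1 of the genes.

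SAGA, the other complex of KAT2A and KAT2B, was followed through 19 further subunits. In TC versus EV, 1 was called higher, the splicing-associated subunit Sf3b3 (log2 fold change 0.29, edgeR, adjusted p = 0.0473), and 1 lower, the deubiquitinase Usp22. Of all genes, 14.8% were higher and 13.2% lower there. Usp22 had 81.5 and 80.7 CPM in EV, 58.5 CPM in TC and 57.7, 58.5 and 52.5 CPM in TC + ATA, with a log2 fold change of −0.47 in TC versus EV (edgeR, adjusted p = 0.00484). Between TC + ATA and EV, 1 of the 19 was higher and 7 were lower, where 18% and 18.6% of all genes were. Their median was −0.14, against −0.01 for all genes. Of the 15 tested genes of the COMPASS methyltransferases, which share WDR5, 2 were higher in TC than in EV (Kmt2d at 0.62 and Setd1a at 0.27) and 2 lower (Kdm6a at −0.49 and Wdr82 at −0.30), all as log2 fold changes. The shares of all genes there were the same 14.8% and 13.2%. Between TC + ATA and EV 2 of the 15 were higher and 7 lower, beside the same 18% and 18.6% of all genes, and their median was −0.12, against −0.01. Setd1a shares 3523 of its 6795 exonic bases with another gene on the same strand, so its value is uncertain.

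Among 8 other lysine acetyltransferases, Kat7 (0.31) and Ep300 (0.26) were higher and Kat5 (−0.32) lower in TC than in EV, and the same counts, 2 higher and 1 lower, held in TC + ATA versus EV. Of all genes, 14.8% were higher and 13.2% lower in TC, and 18% and 18.6% in TC + ATA, each against EV. Of the 3509 exonic bases of Kat5, 426 overlap Rnaseh2c, a gene of the other strand. Of 5 paralogs and partners, Wdr5b, Mllt3 and Mllt1 were lower in TC than in EV, as were 13.2% of all genes. Their log2 values were −1.17, −1.04 and −0.32 (edgeR, adjusted p = 0.00349, 0.000128 and 0.0178). Wdr5b, an intronless relative of Wdr5, had 6.51 and 6.53 CPM in EV, 2.90 CPM in TC and 3.89, 3.13 and 2.95 CPM in TC + ATA. Mllt3, which encodes a YEATS-domain protein of elongation complexes, had 106.5 and 124.3 CPM in EV, 56.1 CPM in TC and 59.8, 62.7 and 58.8 CPM in TC + ATA. These 2 paralogs differed by more than any of the 10 ATAC subunits. Yeats4, which encodes the remaining YEATS-domain protein on the list, was −0.10 in TC versus EV (edgeR, adjusted p = 0.389) and was lower in TC + ATA than in EV (−0.19; edgeR, adjusted p = 0.0352). Drap1, the partner of DR1 in NC2, was 0.01 in TC versus EV and was called in neither comparison with EV. Of the 5 paralogs and partners, 4 were lower in TC + ATA than in EV, against 18.6% of all genes. Against TC, TC + ATA had no called gene in any of these lists, where 0.583% of all genes were called.

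**Figure D5:**
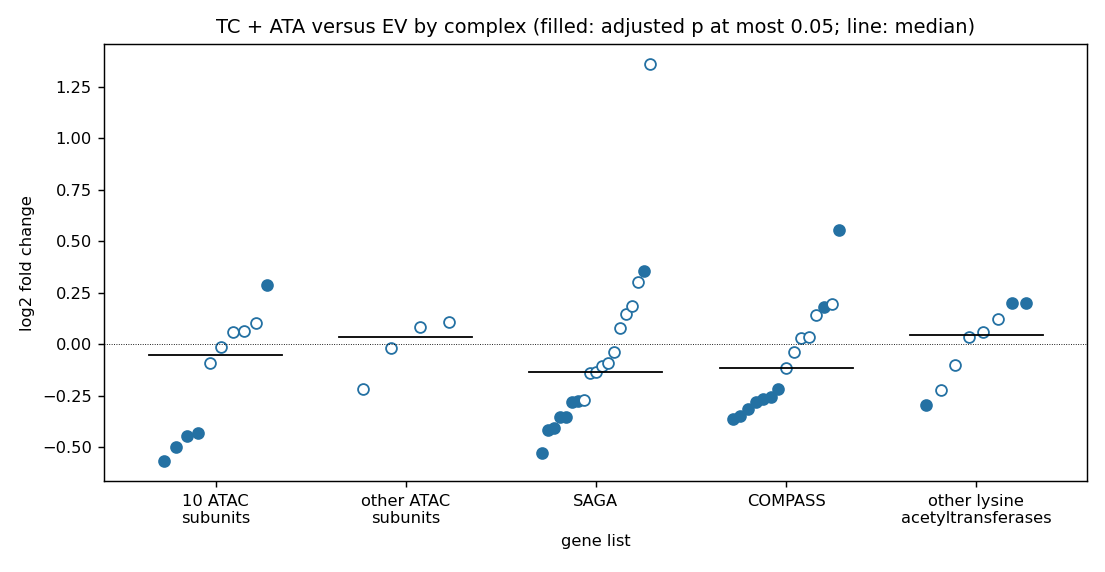
Log2 fold changes from edgeR in TC + ATA versus EV for the 10 ATAC subunits, the 4 other ATAC subunits and the tested genes of SAGA (19), COMPASS (15) and the other lysine acetyltransferases (8), with 1 point per gene, filled where the adjusted p was at most 0.05, and a line at the median. The open point at 1.36 is Taf9, which had between 2 and 16 counts in a library. Taf9 shares 1564 of its 2120 exonic bases with Ak6 on the same strand, so reads may be missing from its counts.

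Yeats2 had the largest log2 fold change among the subunits called in TC versus EV, and its pattern over the 6 libraries was set against the 4408 genes tested with a mean CPM within 2-fold of its own. Among the 3 closest were Akap11 and Ice1, with Pearson correlations of log2 CPM of 0.997 and 0.996 (n = 6 libraries, which form 3 groups). Akap11, for example, had 62.3 and 81.0 CPM in EV, 52.1 CPM in TC and 50.2, 48.8 and 47.3 CPM in TC + ATA, and like Yeats2 was higher in EV replicate 2 than in EV replicate 1.

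The scale on which the EV libraries were read changed how far apart they were. In TPM, all 10 subunits were higher in EV replicate 2 than in EV replicate 1, by 1.08-fold for Dr1 to 1.63-fold for Mbip. In CPM the ratios ran from 0.939 for Dr1 to 1.41 for Mbip. The step from CPM to TPM multiplies this ratio by the same factor for every gene of the libraries. The count of 10 in TPM therefore describes the scale and not the subunits, and the share of all genes was not computed. Yeats2, Tada2a, Tada3 and Mbip were lower, and Kat14 higher, in every TC + ATA library than in both EV libraries on either scale. The part that the difference between the EV libraries has in these results was not tested beyond the fits without each of them.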

How the data were processed

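RNA-Seq data of 6 libraries of NIH3T3 cells were analysed, grouped by the sample labels. The authors aligned paired-end reads to GRCm38.p6 (mm10) with HISAT2 (2.2.1 in the submitters' processing notes) and deposited raw counts per gene from featureCounts, without normalization. Which annotation release was counted, whether strand was used and how multi-mapping reads were treated are not given in the sources used here. Reads in bases shared by 2 genes may therefore be missing from both.

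Of 55401 genes, 55141 matched GENCODE M21, which gave symbols, positions and exonic lengths. Tests were run with edgeR 4.0.16 under R 4.3.3 (TMM, filterByExpr, glmQLFit, glmQLFTest, 1 fit of all 6 libraries with 3 residual degrees of freedom, Benjamini-Hochberg adjustment over 18539 genes, called at an adjusted p of at most 0.05). TC has 1 library, so its spread was taken from the other groups. Standard errors and 95% intervals were derived from the F statistic. The 10 genes and all lists were chosen with earlier results of these data known. All 10 subunits and the 4 other ATAC subunits were named whatever their values, and from each other list up to 3 genes called in each direction with the largest change. For Yeats2, the 3 genes with the most similar pattern were sought, and 1 of them is not reported here. Taf9, Akap11 as an example, Tada2b, Yeats4 and Drap1 were named after their values were seen. Close copies were sought with blastn among GENCODE M21 transcripts (at least 95% identity over 100 bases). Yeats2 also had matches of up to 136 bases to 8 genes. Promoter windows came from RefSeq (GRCm38.p6), and all 10 genes matched.

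The model was tested on simulated counts. Alternatives were DESeq2 1.42.0, other scalings and filters, only the groups compared, a replicate block and each replicate left out. Counting error was at most 3.78% of a value. It was not small beside the spread of every subunit within a group, such as Kat14 in EV (42.9 ± 0.419 CPM, SD, n = 2). Each group held only 1 to 3 libraries.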

Additional observations from a re-analysis of the deposited data

How the results depend on the processing

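In TC versus EV, where 3 members were called, DESeq2 and the fit with no low-count filter each called 5, the fit with only the 2 groups 1, and the fits without 1 replicate from 1 to 6. In TC + ATA versus EV, the count of 5 stayed within 4 and 6 in all alternatives. In TC + ATA versus TC, the fit with only the 2 groups called 2, and those without 1 replicate from 0 to 2. Where a fit left EV with 1 library, that library was assumed to vary like the other groups. Of all genes in TC versus EV, 2735 were higher and 2456 lower in the main fit, and 2878 and 2459 with DESeq2. With no low-count filter they were 2847 and 2761 of 28562 genes, and with only the 2 groups 1858 and 1808 of 17764. For the other comparisons, the member counts of the alternative fits are not set beside all genes here.

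Replicate numbers 1 and 2 occur in both EV and TC + ATA. The deviations of libraries of the same number from their group means had correlations of −0.024 and −0.069. With 2 EV libraries these deviations mirror each other, so the correlations cannot show whether a number marks a shared day or batch. The sources used here do not say whether it does. With the replicate number as a block, which leaves 1 residual degree of freedom, the members called were 0 for TC and 5 for TC + ATA against EV and 0 for TC + ATA against TC, and over all genes 1717 were higher and 1467 lower in TC versus EV.

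The difference in the Kat2a share ranged from −1.60 to 0.23 percentage points without 1 replicate, and that of Tada2a from −9.63 to −7.88. No member called in the main fit of a comparison changed sign there in another fit. Signs turned for members near 0 in the main fit. Library size only put the median of all genes against EV at −0.13 for TC and −0.10 for TC + ATA, instead of −0.03 and −0.01. In that fit, the log2 fold changes against EV were −0.054 (Zzz3) and −0.028 (Dr1) for TC. They were −0.027 (Zzz3) and −0.025 (Dr1) for TC + ATA, and Dr1 was 0.0029 in TC + ATA against TC. Kat2b in TC + ATA against EV was 0.0051 with DESeq2, 0.016 with a filter of at least 1 CPM in 2 libraries and 0.060 with the replicate block. The block gave −0.040 for Zzz3 and −0.22 for Mbip in TC + ATA against TC. Without 1 replicate, Zzz3 ranged from −0.054 to 0.16 and Kat2b from −0.11 to 0.054 in TC against EV, Zzz3 from −0.049 to 0.18 and Kat2b from −0.10 to 0.077 in TC + ATA against EV, and Zzz3 from −0.0081 to 0.021, Kat2b from −0.059 to 0.085 and Mbip from −0.045 to 0.080 in TC + ATA against TC. The cause was not tested.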
